A study of Rattus norvegicus with 22 samples.

Results

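Transcription factors that set the fate of squamous epithelium were followed in tongue cancers of the rat. The set held 9 genes, Tp63, Sox2, Klf4, Klf5, Myc, Grhl3, Ovol1, Gata3 and Ehf, out of 19167 gene symbols on the array. A gene was taken where its symbol in the scanner files equalled one of these names, and where a gene had several probes the one brightest over the 22 arrays was used. All 9 were found. The samples were 11 pairs of oral squamous cell carcinoma (OSCC) and adjacent phenotypically normal tongue, 1 pair from each of 11 male F344 rats. Every rat had drunk water with 4-nitroquinoline-1-oxide (4-NQO, a mutagen that forms bulky DNA adducts) at 20 ppm for 10 weeks. The rats were about 33 weeks old at the planned end of the study. Rats with signs of a large oral cancer were killed earlier, so the age of each rat at tissue collection is not known. The normal pieces are thus from carcinogen-exposed tongues, although the sample titles call them untreated and the labels list no treatment for them, and no tongue of an unexposed rat was measured. Total RNA of whole tissue pieces was hybridized to one-color Agilent 4x44K arrays, and log2 expression is the log2 signal minus the 75th percentile of that array, so that 0 equals the percentile.

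Stratified squamous epithelium renews from a basal layer whose cells stop dividing, move upwards and cornify. Tp63 encodes p63, which maintains basal cells, and Sox2 encodes a progenitor factor that works beside p63 in squamous cancers. Klf5 is most active in basal cells and Klf4 in the layers above them, while Myc drives growth and ribosome production. Grhl3 and Ovol1 act in cells that leave the cycle and build the barrier. Gata3 serves epidermal lipid synthesis and is also a factor of T cells. Ehf is an ETS factor of differentiating epithelia, squamous and glandular. In whole tissue, fewer cells of a type and less RNA per cell cannot be told apart.

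Ehf rose in OSCC and was higher in all 11 pairs. Its measured ratio was 7.63-fold (log2 difference 2.93), but only 2 normal arrays were well above background for it, and with another background correction the log2 difference was 1.26. It was the only member called at an adjusted p below 0.05 with at least a 2-fold change (limma, adjusted over all 30367 probes), so that 1 member was called higher and 0 lower. Over all gene symbols 7.48% were called higher and 7.24% lower, 14.7% in all. At the adjusted p alone Klf5 was lower (1.38-fold) and Gata3 higher as well, a test that 27.9% of all genes passed with a lower and 17.0% with a higher level in OSCC. Tp63, Sox2, Klf4, Myc, Grhl3 and Ovol1 were not called, with adjusted p between 0.35 and 0.96. For Ovol1 this was so only of the brighter of its probes, since the other probe was called 3.05-fold higher, as were 6.86% of all probes at 2-fold or more.

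Several facts of the whole series bear on these values. The 75th percentile of an array lay between 236.8 and 654.9 signal units in normal tissue and between 338.7 and 1414 in OSCC, and the median log2 difference of all genes was -0.21. No slide carried both tissues (3 slides for normal tissue, 4 for OSCC). Scan day was shared by the tissues of animals 4 and 9 only. The OSCC arrays of the remaining 9 rats were scanned on a different day from every normal array, so day and tissue differ together in 9 pairs. Keratinocyte markers were present in both tissues. The log2 of their summed signal lay between 8.62 and 9.15 in normal tissue and between 6.19 and 9.56 in OSCC, and of 14 measured 2 were called higher and 1 lower. Of 13 markers of serous and mucous glands 10 were called higher, and their summed level rose from a range of -1.70 to 1.59 to one of 1.48 to 12.78, in 11 of 11 pairs. Of that list, Pip and Ltf stayed near background in both tissues. Of 14 skeletal muscle markers 10 were called lower and 1 higher. Of 14 T cell markers 8 were called higher and 0 lower. The same was so of 8 of 12 neutrophil, 6 of 10 macrophage, 4 of 8 B and plasma cell and 7 of 11 fibroblast markers, each of these lists being higher in its summed level in 10 pairs. Of 11 endothelial and 12 proliferation markers 0 were called by limma in either direction (3 endothelial ones were lower at the adjusted p alone). In summed level the endothelial list was lower in 10 pairs and higher in 1, and the proliferation list higher in 7 and lower in 4.

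The OSCC array of animal 24 stood apart. Its summed keratinocyte level was 6.19, below the 8.20 of the next lowest OSCC array and below every normal array, while its gland level was 11.75 and its muscle level 11.87, the latter above the highest normal value of 11.83. Within that rat keratinocyte markers fell by 2.77 on the log2 scale and proliferation markers by 1.59. This pair gave the lowest difference of all 11 for Tp63, Klf4, Klf5, Myc, Grhl3 and Ovol1. In it 8 of the 9 members were lower in OSCC, with Ehf the exception. Over all probes the differences of animals 22 and 24 correlated least with the mean of the other pairs (Pearson r 0.21 and 0.26 across probes), followed by 17 and 21 (0.47 each), against 0.76 to 0.84 for the other 7. Muscle markers were not lower in the OSCC pieces of animals 21, 22 and 24. Results for the members are therefore given with and without animal 24.

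**Figure D1:**
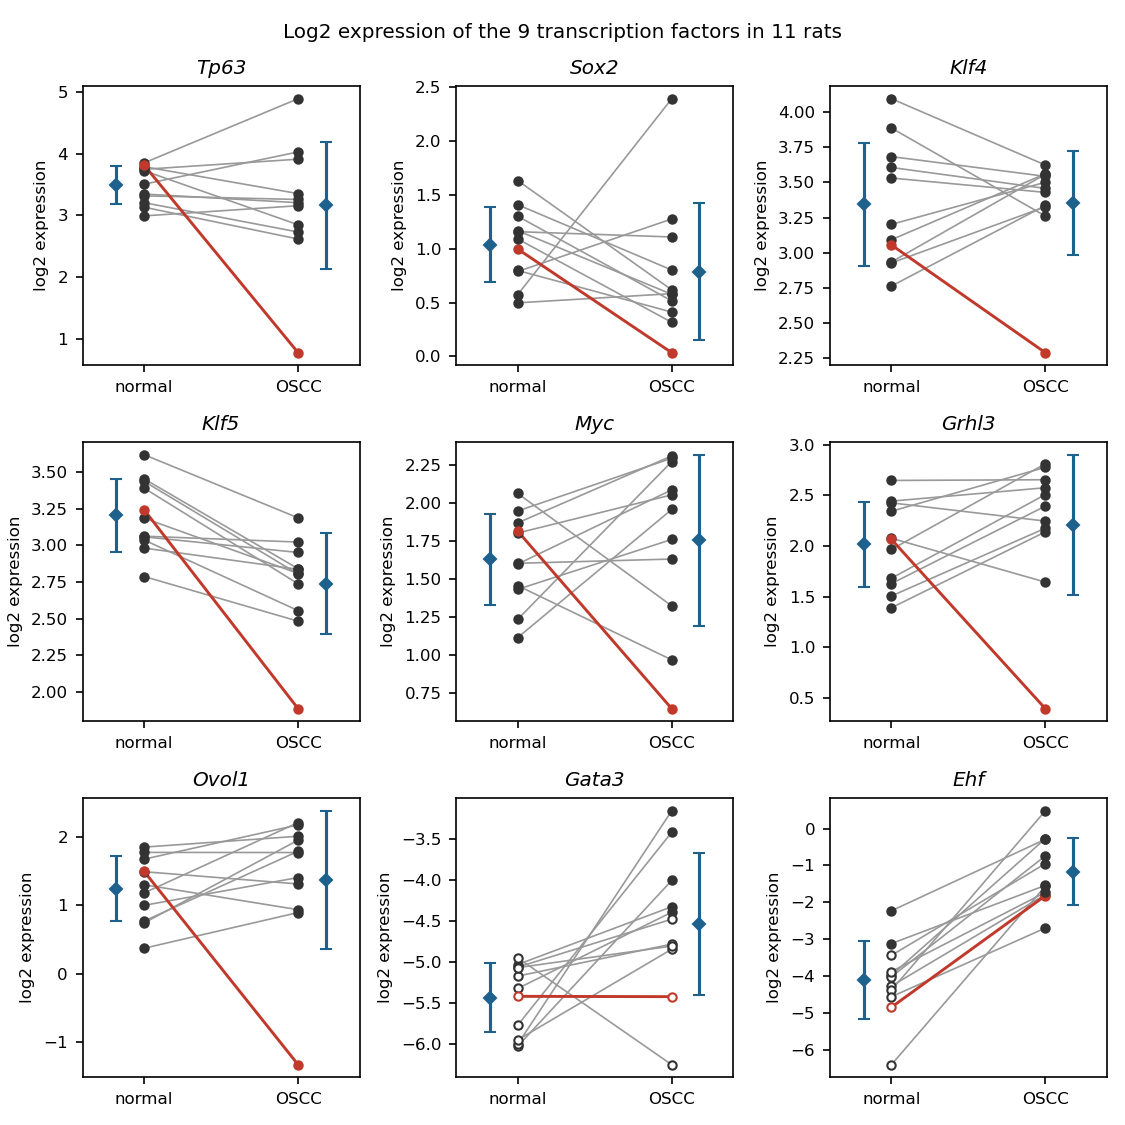
Log2 expression (array 75th percentile = 0) of the 9 factors in normal tissue and OSCC, with a line for each rat. Open points were not well above background, diamonds with bars give the mean ± SD of 11 arrays, and red marks animal 24. Ehf rose in all 11 rats, while animal 24 had the lowest OSCC value for Tp63, Sox2, Klf4, Klf5, Myc, Grhl3 and Ovol1.

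Ehf was the member with the widest separation. The stretch below opens its 60-base probe on chromosome 3 (88518960 to 88519019 of assembly rn4, minus strand as the array annotation gives it), and is shown because the called change rests on this single probe. Exon and UTR were not assigned, since no annotation of that assembly was used here.
Ehf probe, first 30 bases: gggagattctttttagagctccatgtgaga
In normal tissue its log2 expression ran from -6.41 through a median of -4.02 to -2.23, and in OSCC from -2.70 through -1.54 to 0.49. The groups overlapped by little, as 10 of the 11 OSCC values lay above the highest normal one. The means were -4.10 ± 1.06 and -1.17 ± 0.91 (SD, n = 11). The difference was 2.93 with a standard error of 0.32 and a 95% interval from 2.24 to 3.62 (adjusted p = 0.00015 from limma). Single pairs ranged from 1.58 in animal 4 to 4.87 in animal 17.

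The signal of Ehf was well above background on all 11 OSCC arrays but on only 2 normal arrays, those of animals 4 and 16, so the lower end of its fold rests on dim spots. With normexp background correction, which lifts dim signals, the difference was 1.26 (adjusted p = 0.0048 from limma). In the 2 rats whose tissues were scanned on 1 day it was 1.58 and 3.71. With scan day as a further term it was 2.64 with an adjusted p of 0.085 from limma and was no longer called, in a fit that called 3 of all probes. Gland markers also rose in all 11 pairs. In the pairs where they rose least, those of animals 25 and 26 with 1.02 and 1.91 on the log2 scale, Ehf differed by 2.15 and 2.49. Where they rose most, in animals 17, 24 and 16 with 13.92, 13.45 and 13.04, Ehf differed by 4.87, 3.03 and 1.94. The median Ehf difference over all pairs was 2.49. The part of gland tissue in the Ehf result was not tested. In animal 24, where keratinocyte markers were low, Ehf was higher by 3.03, and without that animal the difference was 2.92 (adjusted p = 0.00031 from limma).

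Klf5, the basal Krüppel-like factor, was lower in OSCC in 11 of 11 pairs. Its probe on chromosome 15 (83118108 to 83118167, plus strand) is spotted 10 times on each array. Normal values ran from 2.79 through 3.19 to 3.62 and OSCC values from 1.89 through 2.81 to 3.19. Although the groups overlapped, 4 OSCC arrays lay below the lowest normal one. The difference of -0.47 (standard error 0.13, 95% interval -0.74 to -0.20, adjusted p = 0.013 from limma) passed the adjusted p but not the 2-fold minimum, and the median of all genes was itself -0.21. Without animal 24, whose difference was -1.36, it was -0.38 (adjusted p = 0.012 from limma). Animals 4 and 9, scanned within 1 day, gave -0.61 and -0.38. The adjusted p rose to 0.095 with normexp correction and to 0.26 with scan day as a term.

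Klf4, the suprabasal factor of the same family (chromosome 5, 73446994 to 73447053, minus strand), had a mean of 3.34 ± 0.44 in normal tissue and of 3.35 ± 0.37 in the cancers (SD, n = 11). Normal values ran from 2.76 through 3.20 to 4.09 and OSCC values from 2.29 through 3.46 to 3.62, with 0 OSCC arrays above the normal range and 1, that of animal 24, below it. The difference was 0.01 (95% interval -0.32 to 0.34, adjusted p = 0.96 from limma), lower in 6 pairs and higher in 5. Setting animal 24 aside narrowed the OSCC values from an SD of 0.37 to one of 0.12, against 0.44 in normal tissue, and moved the difference to 0.09 (adjusted p = 0.62 from limma).

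Tp63, which maintains the basal layer, is read by a pair of probes that share none of the transcripts listed for them in the array annotation, 4 for the brighter probe and 2 for the other. The opening bases of both are shown because they moved apart in animal 24. The brighter lies on chromosome 11 at 76900656 to 76900714 and the other at 76923148 to 76923207, both on the minus strand.
Tp63 brighter probe, first 30 bases: gttatgggctatggtgagcctgaggcaaat
Tp63 other probe, first 30 bases: acacgatcgagacgtacaggcagcagcagc
By the brighter probe, normal values ran from 2.99 through 3.50 to 3.85 and OSCC values from 0.77 through 3.20 to 4.89. The OSCC values reached beyond the normal range on both sides, with 3 arrays above and 4 below it. The difference was -0.33 (standard error 0.29, 95% interval -0.96 to 0.30, adjusted p = 0.35 from limma), lower in 7 pairs. Animal 24 gave -3.04 and animal 13 the highest value, 1.04. Without animal 24 it was -0.06 (adjusted p = 0.78 from limma), and the SD of the OSCC arrays was 0.70 in place of 1.03.

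The other Tp63 probe, also well above background on all arrays, gave a mean difference of -0.02 (95% interval -0.43 to 0.39, adjusted p = 0.93 from limma). In animal 24 it read 1.25, its highest pair, where the brighter probe read -3.04. Over the 11 pairs the difference between the probes averaged 0.31 (standard error 0.45) and did not pass an exact two-sided sign-flip permutation test (p = 0.65, and 0.65 after adjustment over the 4 genes with a second probe). Animals 21 and 22 also read higher by the other probe, 0.73 and 0.40, and lower by the brighter one, -0.44 and -0.88. The correlation of the probes was -0.57 over 11 pairs and -0.01 over the 10 pairs without animal 24, as a description of 1 set of arrays.

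**Figure D2:**
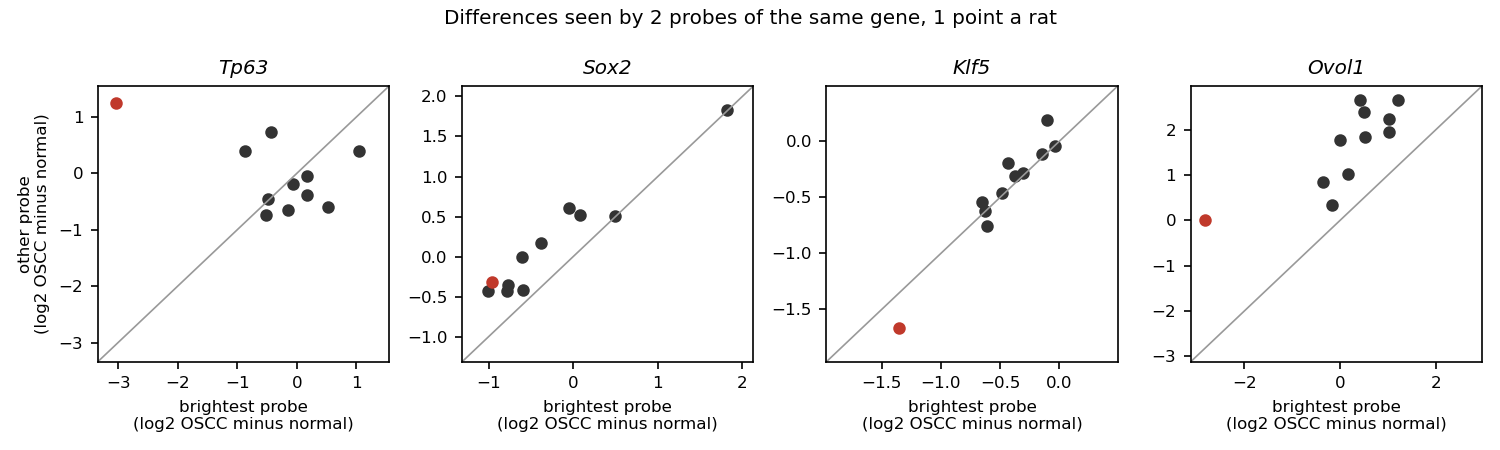
OSCC minus normal log2 difference by the brightest probe (x axis) and by the other probe of the same gene (y axis), with 1 point for each of 11 rats, the line of equality, and animal 24 in red. For Ovol1 and Sox2 all 11 points lay above the line, for Klf5 they followed it, and for Tp63 animal 24 lay at -3.04 and 1.25.

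Sox2, the progenitor factor (chromosome 2, 120970327 to 120970386, plus strand), had normal values from 0.50 through 1.09 to 1.63 and OSCC values from 0.04 through 0.58 to 2.39. The groups overlapped widely, with 3 OSCC arrays below the normal range and 1, that of animal 17, above it. The difference was -0.25 (standard error 0.24, 95% interval -0.76 to 0.26, adjusted p = 0.38 from limma), lower in 8 pairs. Animal 17 gave 1.82, while animal 11 gave -1.01, and the mean depended on the rats. Without animal 17 it was -0.46 (adjusted p = 0.035 from limma), and without animal 24 it was -0.18 (adjusted p = 0.54). Its other probe, at 120969725 to 120969784, followed the same rats (r 0.97 over 11 pairs) and read 1.83 in animal 17, but averaged 0.15 (adjusted p = 0.54 from limma). The probes differed by 0.41 (standard error 0.07, the other probe higher in 11 of 11 pairs, exact sign-flip permutation p = 0.00098, the smallest that 11 pairs allow, adjusted p = 0.002), so the sign of the mean depends on the probe.

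Klf5 also had another probe, which spans 83106653 to 83107797 and is thus split over the genome. It gave -0.44 (adjusted p = 0.038 from limma), lower in 10 pairs, and the probes followed each other over the rats (r 0.97). Their difference was 0.03 (exact sign-flip permutation p = 0.54 over 11 pairs, adjusted p = 0.65).

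Myc, the transcription factor of cell growth (chromosome 7, 98957687 to 98957746, plus strand, 10 spots), had normal values from 1.11 through 1.60 to 2.06 and OSCC values from 0.65 through 1.96 to 2.31. More OSCC values lay above the normal range (4) than below it (2). The difference was 0.12 (standard error 0.20, 95% interval -0.30 to 0.55, adjusted p = 0.61 from limma), higher in 8 pairs. The 3 pairs with lower OSCC values were those of animals 17, 22 and 24, at -0.49, -0.74 and -1.17. Without animal 24 the difference was 0.25 (adjusted p = 0.22 from limma).

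Grhl3, a grainyhead factor of barrier formation (chromosome 5, 154312655 to 154312714, minus strand), ran from 1.39 through 2.07 to 2.65 in normal tissue and from 0.40 through 2.40 to 2.81 in OSCC. Apart from animal 24, the lowest OSCC value was 1.65, inside the normal range. The difference was 0.20 (standard error 0.22, 95% interval -0.28 to 0.67, adjusted p = 0.47 from limma), higher in 8 pairs, with -1.67 in animal 24. Without that animal it was 0.38 (adjusted p = 0.052 from limma).

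Ovol1, a zinc finger factor of keratinocytes leaving the basal layer, gave unlike answers by its probes. Both lie on the minus strand of chromosome 1 and carry the same transcript in the annotation, the brighter at 208192952 to 208193011 and the other at 208194944 to 208195003. Their opening bases are shown because the call depends on which one is read.
Ovol1 brighter probe, first 30 bases: tccccttggaccttttttcttcatgcaaag
Ovol1 other probe, first 30 bases: aagctgtatgtgtgtgaggagtgtggctgc
By the brighter probe, normal values ran from 0.37 through 1.30 to 1.85 and OSCC values from -1.33 through 1.77 to 2.21, with 4 OSCC arrays above the normal range and 1, that of animal 24, below it. The difference was 0.13 (standard error 0.31, 95% interval -0.53 to 0.80, adjusted p = 0.73 from limma). Without animal 24, which gave -2.82, it was 0.43 (adjusted p = 0.05 from limma), short of the 2-fold minimum.

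By the other probe Ovol1 was called higher in OSCC. Normal values ran from -2.64 through -1.36 to -0.22 and OSCC values from -2.36 through 0.23 to 1.07, and 8 OSCC arrays lay above the highest normal one. All 22 arrays were well above background. The difference was 1.61 (standard error 0.26, 95% interval 1.04 to 2.18, adjusted p = 0.00087 from limma), higher in 10 pairs, with -0.002 in animal 24. Animals 4 and 9, scanned within 1 day, gave 1.02 and 1.77. The probes differed by 1.48 (standard error 0.20, the other probe higher in 11 of 11 pairs, exact sign-flip permutation p = 0.00098, adjusted p = 0.002), and by 1.34 without animal 24. They ordered the rats alike, with r 0.80 over 11 pairs. Which of them follows the Ovol1 transcript more closely was not tested.

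Gata3 (chromosome 17, 80011340 to 80011399, plus strand) was dim. It was detected well above background in 5 OSCC pieces, those of animals 4, 9, 11, 13 and 25, and in 0 normal pieces, and no fold is given since the bound on it was under 1. Measured values ran from -6.03 through -5.33 to -4.96 in normal tissue and from -6.26 through -4.48 to -3.16 in OSCC, with 9 OSCC arrays above the normal range. The difference of these values was 0.90 (standard error 0.32, adjusted p = 0.041 from limma), higher in 9 pairs, and it was 0.20 with normexp correction (adjusted p = 0.96 from limma). The adjusted p was also above 0.05 with arrays scaled by quantiles (0.11) or to their median (0.084). Without animal 24 the Gata3 difference was 0.99 (adjusted p = 0.032). Without animal 22, which gave -1.30, it was 1.12 (adjusted p = 0.0094 from limma). Over all rats left out in turn it lay between 0.71 and 1.12, always of signals near background in normal tissue. With animal 4, 9, 11, 13, 16, 17, 25 or 26 left out, the adjusted p from limma rose above 0.05 (0.054 to 0.09). It was 0.07 with the authors' scaled values and 0.46 with scan day as a term. T cell markers, a source in which Gata3 is also active, were summed from 0.52 to 2.22 in normal tissue and from 1.01 to 3.22 in OSCC, higher in 9 pairs. Their part in the Gata3 values was not tested.

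**Figure D3:**
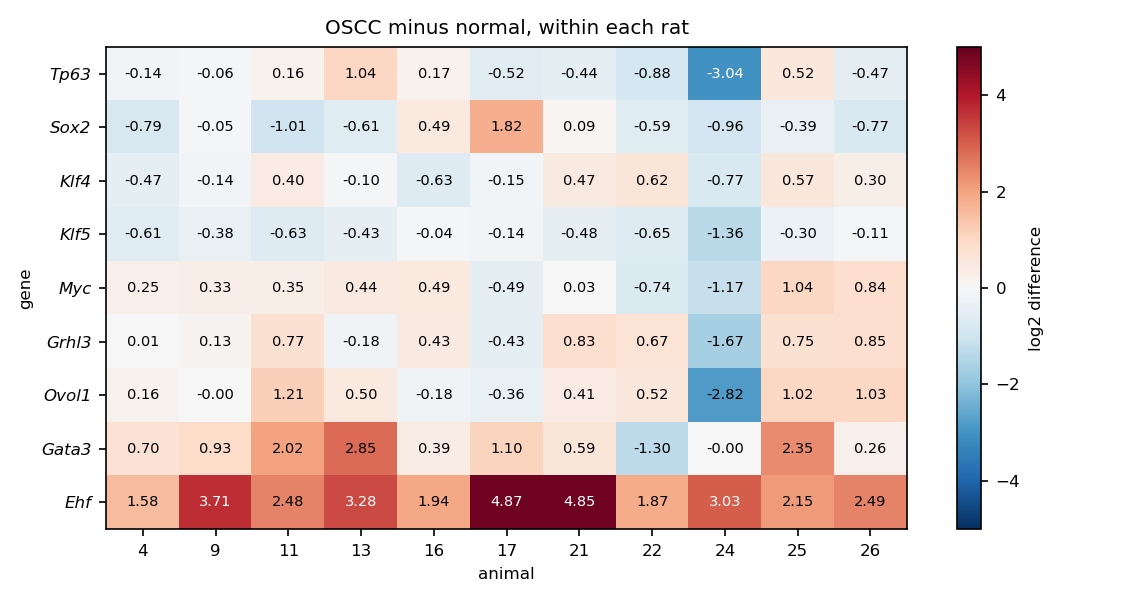
Log2 difference, OSCC minus normal, of each factor (rows) in each rat (columns), red for higher and blue for lower in OSCC. Klf5 was below 0 and Ehf above 0 in every rat, and animal 24 was the most negative for 6 genes.

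The members did not move as a block across the rats. In single pairs between 1 (animal 24) and 7 (animals 11, 21 and 25) of the 9 were higher in OSCC. OSCC arrays varied more than normal arrays for 7 members (77.8%), against 84.4% of all genes. All 36 pairs of members were compared by correlation of their differences over the rats, leaving out rats that stood apart from the rest by over 30% of a gene's range, so that n was 8 to 11. After adjustment 0 passed a p of 0.05, and 5 did before it. The closest relation, Tp63 with Gata3 over 9 rats (r 0.83, rho 0.57, exact permutation p = 0.006 for r and 0.12 for rho, adjusted p = 0.21 and 0.62), fell to r 0.39 without the 2 rats farthest from the median of Tp63 and so rests on them. Klf4, Grhl3 and Ovol1, which act in upper layers, had r between 0.67 and 0.73 with each other over 10 rats (permutation p between 0.02 and 0.038, adjusted p = 0.28 each). Sox2 and Ovol1 ran the other way over 9 rats (r -0.70, rho -0.65, exact permutation p = 0.037 and 0.067, adjusted p = 0.28 and 0.57, r -0.56 without the 2 farthest rats). For Klf4, Grhl3 and Ovol1 rho was 0.59 to 0.71 (permutation p between 0.026 and 0.08, adjusted p between 0.37 and 0.57), and r without the 2 farthest rats was 0.67 to 0.88.

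Among 11641 genes well above background on at least 11 arrays, those with differences most like a member's over the 11 pairs were as follows, as a description over 1 set of arrays in which animal 24 was extreme for 6 members. Klf4 was close to Dlg2 and Klk13 (Pearson r 0.94 to 0.95) and Ovol1 most like Pkp3, Rhod and Bok (0.965 to 0.974, with Pkp3 encoding a desmosomal plakophilin). Grhl3 ran with Mall, RGD1565787 and Aqp3 (0.936 to 0.945), the last a glycerol channel of keratinocytes. Myc ran with Tnfaip8, Ddx21 and Arl4c (0.970 to 0.975), of which Ddx21 encodes a nucleolar helicase. Tp63 was most like Pappa, Gmnn and Cebpg (0.93 to 0.94), Sox2 most like Cgref1, Tm9sf4 and Fntb (0.93 to 0.94), and Klf5 most like LOC100188936, Znf295 and Arhgap1 (0.96 each). Gata3 was most like Sec22a, Ifi35 and Rnf4 (0.90 to 0.94). For Ehf the closest were Slc35f5, Eef2 and Pi4kb at 0.85 to 0.88, lower than for any other member.

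Relatives of the members showed where Ehf differed from its group and where not. For 6 other ETS genes, Spdef and the ELF genes Elf1 to Elf5, the counts were 3 called higher and 0 lower, with a median log2 difference of 1.03. Elf5, a factor of glandular and squamous epithelia, was 4.23-fold higher (2.08, adjusted p = 0.00084 from limma), in 10 pairs. Elf3, induced in differentiating epithelium, was 2.58-fold higher (1.37, adjusted p = 0.0035), in 9 pairs. Spdef, a factor of secretory cells, was at least 2.19-fold higher (adjusted p = 0.026), a lower limit because it cleared the background in 0 normal and 6 OSCC pieces. Summed gland markers rose in 11 of 11 pairs, and their part in the values of Elf5, Elf3 and Spdef was not tested. Of 13 other KLF genes 0 were called in either direction by limma at the fold minimum, with a median of -0.16. At the adjusted p alone Klf6 was higher (0.53, adjusted p = 0.013), and Klf9 (-0.89, 0.005), Klf11 (-0.52, 0.0053) and Klf13 (-0.76, 0.01) and Klf16 (-0.44, 0.037) were lower.

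Sox7, an endothelial SOX factor, was 2.61-fold higher in all 11 pairs (1.38, adjusted p = 0.0013 from limma), and Sox6, known from slow and fast muscle fibre choice, was lower (-1.49, adjusted p = 0.003). Sox6 was well above background on 10 normal but only 4 OSCC arrays, so the size of its fall is uncertain, and muscle markers were lower in 8 pairs, a part that was not tested. Sox7 and Sox6 were the only 2 of 11 other SOX genes called. At the adjusted p alone Sox9 (0.72, adjusted p = 0.042 from limma), Sox11 (0.96, adjusted p = 0.0076) and Sox13 (0.52, adjusted p = 0.03) were higher. Sox11 cleared the background on 1 normal and 8 OSCC arrays. Gata2 fell by 1.23 on the log2 scale (adjusted p = 0.0013) while Gata1, Gata4, Gata5 and Gata6 stayed near background on all arrays, so that no difference could be read for them. Mycl, a MYC paralogue, fell by 1.19 (adjusted p = 0.00052), in all 11 pairs, and Mycn was not called. Tp73, Grhl1, Grhl2 and Ovol2 were not called at the fold minimum. By the adjusted p alone Tp73 (-0.60, adjusted p = 0.043 from limma) and Grhl1 (-0.615, adjusted p = 0.021) were lower, each in 9 pairs. Mycn also passed it (0.505, adjusted p = 0.034), but cleared the background in 0 normal and 3 OSCC pieces.

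Factors outside these families split both ways. Among 47 other measured epithelial fate factors 6 were called higher and 7 lower, with a median of 0.04 against -0.21 for all genes. The AP-1 gene Fosl1 was 4.68-fold higher (2.23, adjusted p = 0.013 from limma) and Bnc1, a basonuclin of basal cells, 4.03-fold higher (2.01, adjusted p = 0.0093). The homeobox gene Msx2 was 7.10-fold lower in all 11 pairs (-2.83, adjusted p = 0.00022) and cleared the background in 8 OSCC pieces. Tfap2b, an AP-2 factor, was lower in 9 pairs (-2.76, adjusted p = 0.0034), but well above background on only 6 OSCC arrays, so the size of its fall is uncertain. On normal arrays Fosl1 cleared the background 9 times and Bnc1 7 times.

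**Figure D4:**
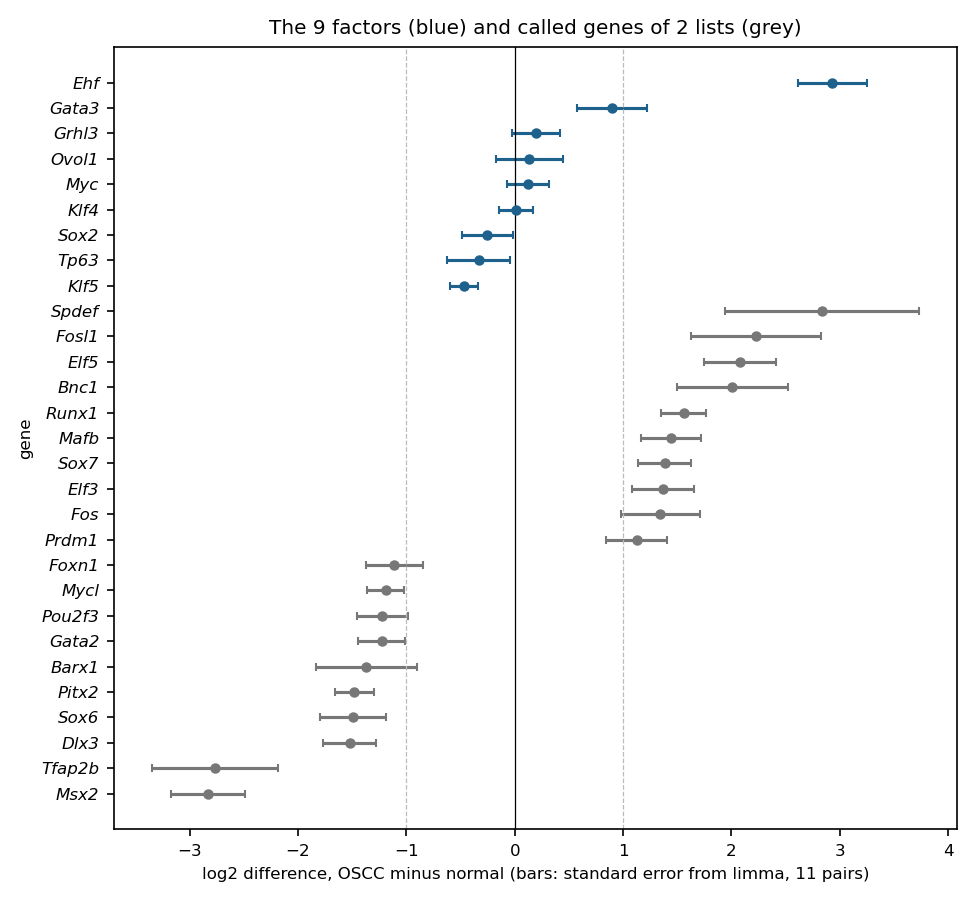
Log2 difference, OSCC minus normal (x axis), with its standard error from limma over 11 pairs, for the 9 factors (blue) and for all called genes among their relatives and the other epithelial fate factors (grey). Dashed lines mark a 2-fold change, which Ehf alone of the 9 passed.

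The genes known to answer to the members were read from lists. MYC acts with Max and against the Mxd proteins. Of 11 partners and antagonists on the array 1 was called, Bin1, which fell by 1.62 on the log2 scale (adjusted p = 0.0073 from limma). Bin1 encodes a MYC-binding adaptor that is also abundant in skeletal muscle, whose markers were lower in 8 pairs, and the part of muscle in its fall was not tested. At the adjusted p alone Max (0.75, adjusted p = 0.00064 from limma) and Mlx (0.51, adjusted p = 0.0035) were higher, each in 11 pairs. Zbtb17 (-0.62, adjusted p = 0.00053) was lower in 11 pairs and Mxd3 (-0.69, adjusted p = 0.03) in 10. Of 37 nucleolar and growth targets of MYC 1 was called higher and 0 lower, with a median of 0.03. The one called was Odc1, the first enzyme of polyamine synthesis (2.51-fold, 1.33, adjusted p = 0.0066), higher in 10 pairs.

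Of 26 basal keratinocyte genes known to depend on p63, 5 were called higher and 1 lower, with a median of 0.18. At the adjusted p alone 7 were higher and 5 lower. The lower ones included Jag2 (-0.66, adjusted p = 0.0027 from limma), Dst (-0.79, adjusted p = 0.02) and Fgfr2 (-0.615, adjusted p = 0.022). Fras1 was also lower (-0.89, adjusted p = 0.019), but cleared the background on 0 normal and 1 OSCC arrays. The adhesion gene Itga6, an integrin of hemidesmosomes, rose 3.42-fold in all 11 pairs (1.77, adjusted p = 0.0004 from limma). The cadherin genes Dsg3 and Cdh3 rose as well (adjusted p = 0.041 and 0.043). Itga3 was also called (adjusted p = 0.0052) but cleared the background in 0 normal and 4 OSCC pieces, so no fold is given. Krt15, a keratin of resting basal cells, was 5.81-fold lower in all 11 pairs (-2.54, adjusted p = 7e-05). Krt5 and Krt14, the main basal keratins, differed by -0.08 and 0.29 (adjusted p = 0.87 and 0.60).

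The 39 measured squamous differentiation genes held 14 called higher and 0 called lower, with a median of 0.80, beside 7.48% of all genes called higher. At the adjusted p alone 15 were higher and 2 lower, beside 17.0% and 27.9% of all genes. The 2 lower were Evpl (-0.78, adjusted p = 0.013 from limma), in 10 pairs, and Ecm1 (-0.79, adjusted p = 0.025), in 8. With scan day as a term 0 genes of any pathway list were called by limma at the adjusted p (without adjustment, at a p below 0.05 and 2-fold, 10 were higher and 17 lower). Klk7, a protease that sheds cornified cells, was 7.93-fold higher in all 11 pairs (2.99, adjusted p = 0.00053 from limma). The cornified envelope precursors Sprr1b (5.30-fold, adjusted p = 0.011) and Sprr3 (4.60-fold, adjusted p = 0.021) rose, in 10 and 8 pairs, and so did the desmosomal cadherin Dsc1 (4.92-fold, adjusted p = 0.0032), in 10. In both pairs scanned within 1 day 9 of the 14 were higher. Sprr3 differed there by -0.15 and -0.07, against a mean of 2.72 in the other 9 pairs. Also near or below 0 were Alox12b (-0.49 and 0.08, against 1.63), Cnfn (-0.008 and 0.20, against 1.26) and Spink5 (0.12 and 0.02, against 1.76). Sprr1b (1.598 and 1.476, against 2.597), Flg (1.672 and 1.12, against 2.001) and Sprr1a (0.581 and 1.015, against 1.469) were higher in both. So were Dsc1 (0.739 and 1.412, against 2.57) and Dsc2 (2.01 and 2.36, against 1.33). Krt10 (0.254 and 2.996, against 1.662), Dsg1 (0.249 and 1.175, against 1.322) and Klk7 (0.786 and 4.647, against 3.048) rose more in animal 9. Of these 2 rats, only animal 9 had a rise of Gsdma (-0.985 and 1.746, against 2.259) and Rhcg (-0.04 and 4.779, against 2.08). Rhcg cleared the background on 0 normal and 6 OSCC arrays and Flg on 4 normal and 11 OSCC arrays, so the sizes of their rises are uncertain. The normal values of Sprr3 were also widely spread, with an SD of 2.37 against 0.47 in OSCC.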

How the data were processed

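RNA of 22 tongue pieces was measured on one-color arrays. The authors used Agilent Feature Extraction 9.5.3.1, and the deposited intensity (processed signal, linear, unscaled) has a fitted spatial background surface subtracted. A scaled table was also deposited by the authors, with the signal divided by the array's 75th percentile as a ratio. Control spots and 9196 outlier spots (0.975%) were left out here, the spots of a probe were averaged on the log2 scale, and each array was centred on its 75th percentile. limma 3.58.1 (R 4.3.3) fitted rat and tissue over 30367 probes, with Benjamini-Hochberg adjustment. The call needed both an adjusted p under 0.05 and a 2-fold change. The pairing comes from 1 rat giving both tissues, whose deviations correlated between -0.21 and 0.24 across probes. The fit was tested on simulated data. Members and lists were chosen with earlier results of these data known. Named genes were all members, the 4 called genes with the largest absolute difference in each pathway list, and the 3 genes most like each member; other genes were named after their values were seen, and a few genes that the rule names are not reported here. Alternatives covered scaling, background, outliers, dim probes, test, block, slide, scan day and left-out rats. The contrasts between probes, and which left-out rat is set beside each member, were chosen after seeing the data. Probe positions are those of rn4. The number of arrays limits the precision.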

Additional observations from a re-analysis of the deposited data

How the results depend on the processing

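Limits are the dim signals of Gata3 and of Ehf in normal tissue, the scan day, and probes that differ. Ehf was higher under every alternative, between 1.26 and 3.07, and called in each that had a test except scan day as a term (2.64, adjusted p = 0.085 from limma). The 2 pairs scanned within 1 day allowed values only. Klf5 stayed negative, between -0.67 and -0.33. With no fold minimum 2 members were called higher and 1 lower, 13376 probes, and 53 pathway genes higher and 36 lower, against 1, 0, 4201, 30 and 12. With normexp correction 1701 probes and 17 higher and 6 lower pathway genes were called. With scan day as a term 0 members, 3 probes and 0 pathway genes in either direction were called. At an unadjusted p below 0.05 and 2-fold it was 1 member, with 10 pathway genes higher and 17 lower. Without animals 21, 22 and 24 there were 2 members (the dim Gata3 with 1.33), 6924 probes and 19 lower pathway genes, and Tp63 turned to 0.088. Leaving out 1 rat at a time gave 1 to 2 members higher (2 without animal 22, by Gata3), 0 lower, 3649 to 4799 probes, 22 to 37 pathway genes higher and 11 to 14 lower. Differences that were not called changed sign as follows. With the array median, which moved the median of all probes from -0.24 to -0.44, Klf4 was -0.19, Myc -0.077, Grhl3 -0.006 and Ovol1 -0.067. Klf4 was -0.31 with scan day as a term and in the 2 pairs scanned within 1 day, -0.027 without animals 21, 22 and 24, and between -0.052 and 0.087 with 1 rat left out. Sox2 was 0.15 by its other probe. Quantile normalization moved the median of all probes to -0.03. Without the replicate block, thus ignoring the pairing, 4227 probes and the same numbers of members (1 and 0) were called. The test of correlated members gave 0 pairs at an adjusted p below 0.05 by permutation with arrays scaled to their median or by quantiles (4 and 7 of 36 unadjusted), and 0 of the 11 that could be computed without animals 21, 22 and 24.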
